A study of Mustela putorius furo with 10 samples.

Results

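The genes described here are 10 granule and receptor genes of mature neutrophils, namely S100A8, S100A9, S100A12, MMP8, MMP9, CXCR2, CSF3R, LTF, CAMP and PGLYRP1, in peripheral blood mononuclear cells (PBMC) of ferrets kept in the cold or at room temperature. They were chosen by symbol, through the RefSeq gene name of each target sequence on the array, and a gene was to be reported where its spots were well above background in the ferret's channel on at least 4 of the 10 arrays. Of the 10 listed genes, 7 were matched to a target sequence and all 7 met this condition on all 10 arrays, so that no gene lay close to the limit. MMP8, LTF and CAMP were not matched to a target sequence and are not analysed here. The whole table held 26303 genes that could be tested, out of 37142 on the array.

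All animals were male ferrets (Mustela putorius furo) aged 3 months with free access to food and water. The control group was kept at 22 °C (n = 6 arrays) and the cold group at 4 °C for 1 week, each cold animal housed singly (n = 4 arrays), from groups of 7 animals each. How the control animals were housed is not given in the sources used here. PBMC were separated from heparinised heart blood on a Ficoll gradient, and each animal's RNA, labelled with the green dye Cy3, shared its own array with a red Cy5-labelled reference pool made from PBMC and other ferret tissues. The log2 ratio sets the animal's RNA over the pool and is above 0 where the animal had more of a transcript, and 1 unit is a doubling. Cy3 alone is the log2 brightness of the ferret's channel after quantile normalization.

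Neutrophils carry their antimicrobial proteins in granules that are filled in sequence as the cell matures in the bone marrow, and they reach the blood in response to the cytokine G-CSF and to chemokines. S100A8 and S100A9 form calprotectin, the most abundant protein of the neutrophil cytosol, and S100A12 is a related calcium-binding protein. Monocytes express all of these calgranulins as well. Mature neutrophils are denser than mononuclear cells and mostly pass through a Ficoll layer, and their residue in a PBMC fraction is known to vary. In RNA of mixed cells, a change in the number of cells of a type and a change in RNA per cell cannot be told apart.

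The share of spots well above background was 50.4 to 63.5% (control) and 58.0 to 61.1% (cold) for Cy3, against 27.0 to 54.9% (control) and 40.5 to 64.0% (cold) for Cy5. The members were bright in the ferret's channel, and none of their spots was saturated. In the reference channel, CXCR2 was near background, with as few as 18.75% of its spots well above it on an array, against 58.3% for CSF3R and 100% for the other 5 genes. Control replicate 4 differed from the other controls in several of these genes, and values without it are given beside the results it moved.

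On the log2 ratio, the cold mean lay above the control mean in 7 of 7 genes, while this was so for 48% of all genes tested. The median change of the 7 genes was 0.81, against -0.01 over all genes. At an unadjusted limma p of 0.01, 2 of the 7 genes, S100A8 and S100A9, were higher in cold, against 5.21% of all genes. Under the methods' t-test, for which the study set that threshold, 1 of the 7 genes passed, S100A9. At an unadjusted limma p of 0.05 there were 5 of 7, against 12.2%. Of these, PGLYRP1 and CXCR2 missed 0.05 in Cy3 alone (limma unadjusted p = 0.0556 and 0.274). S100A12, PGLYRP1 and CXCR2 also missed it on the ratio with 1 array left out, at a highest limma unadjusted p of 0.0555, 0.0828 and 0.0543. None of the 7 passed an adjusted limma p of 0.05 on the ratio, and 0% of all genes did. The methods' t-test with the same adjustment also called 0 genes, while 6501 genes lay under an unadjusted limma p of 0.05. These genes were proposed with earlier results of these data known, so their counts describe them and are no independent support. When each array was centred on its median instead of fitted by loess, the direction of 5 of the 7 genes turned, and since the median of all genes then stood at -0.43, 5 of 7 still lay above it. In the value table that the authors deposited, 0 of the 7 passed the unadjusted threshold of 0.01, with differences of 0.57 for S100A8, 0.64 for S100A9, 0.31 for S100A12, 0.20 for PGLYRP1, 0.48 for CXCR2, -0.32 for MMP9 and -0.06 for CSF3R.

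**Figure D1:**
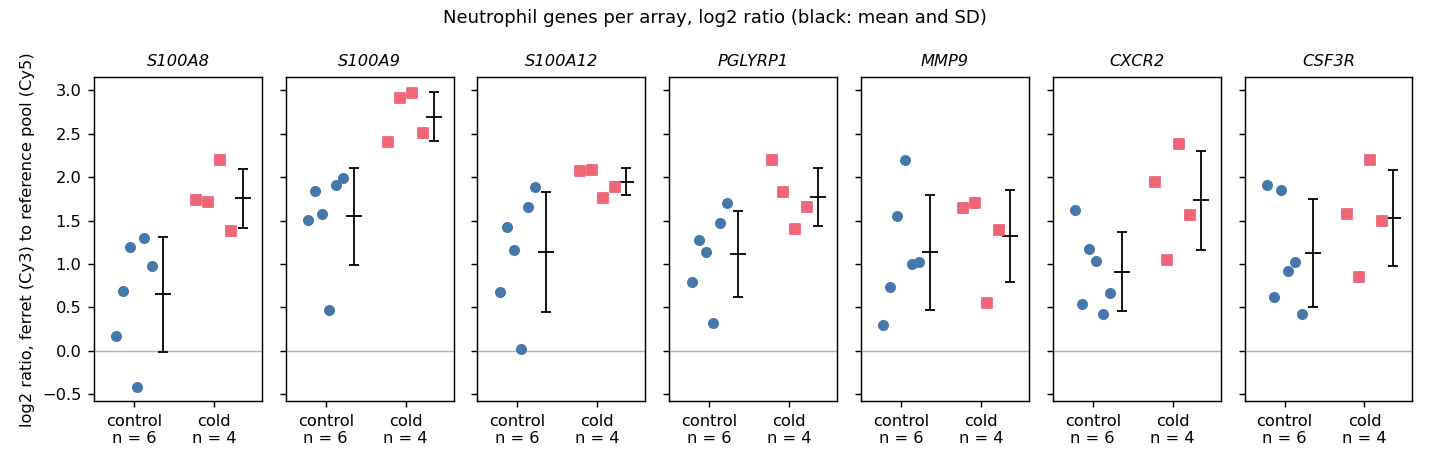
Log2 ratio of ferret RNA (Cy3) to the reference pool (Cy5) for each measured gene, with 1 point per animal (blue circles, 6 control, red squares, 4 cold) and the mean and SD in black. All 4 cold values of S100A8 and S100A9 lay above all 6 control values, and the groups overlapped for the other 5 genes.

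S100A8 and S100A9 differed most on the ratio. S100A8 (gene ID 101671434), the calprotectin subunit that S100A9 partners, had log2 ratios of -0.41 at the lowest, 0.83 at the median and 1.30 at the highest in the 6 controls, and of 1.74, 1.71, 2.20 and 1.38 in cold replicates 1 to 4. Every cold animal stood above every control. The mean was 0.65 ± 0.66 (SD, n = 6) in the controls, while the cold mean was 1.76 ± 0.34 (SD, n = 4), a difference of 1.10 (SE 0.31, 2.15-fold, limma adjusted p = 0.0952, unadjusted p = 0.0049), which fell to 0.89 without control replicate 4 and turned to -0.01 under median centring of the arrays. S100A8 missed the unadjusted threshold of 0.01 when control replicate 1, cold replicate 1, cold replicate 2 or cold replicate 3 was left out, with a highest p of 0.0197 by limma, and also under the methods' t-test and in the deposited value table, where the difference was 0.57 and the limma p was 0.222.

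S100A9 (gene ID 101672040), the larger calprotectin subunit, ranged in control from 0.47 over a median of 1.71 to 1.99. The cold replicates 1 to 4 gave 2.41, 2.92, 2.97 and 2.51. Again no cold value reached down to the controls, and control replicate 4 lay far below the other 5. The difference was 1.15 (SE 0.27, 2.22-fold, limma adjusted p = 0.0736), with an exact two-sided permutation p of 0.00476, the smallest that 210 splits of 10 arrays can give. It was 0.94 without control replicate 4 and kept an unadjusted p under 0.01 whichever array was left out, with a highest limma p of 0.0055. That threshold was missed under median centring, where the difference was 0.08 with a limma unadjusted p of 0.901. It was also missed in the deposited value table, where the difference was 0.64 with a limma unadjusted p of 0.191. A lack of overlap with cold higher, as in S100A8 and S100A9, was found for 3.07% of all genes.

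S100A12 (gene ID 101671748), also called calgranulin C, ran from 0.02 to 1.89 in the controls with a median of 1.29. In cold it was 2.07, 2.08, 1.76 and 1.88, a narrow range whose lower edge was within the upper part of the controls. The difference of 0.81 (SE 0.31, 1.75-fold, limma unadjusted p = 0.0238, adjusted p = 0.149) became 0.59 without control replicate 4 and -0.25 under median centring.

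PGLYRP1 (gene ID 101680926), a peptidoglycan recognition protein stored in neutrophil granules that binds bacterial cell walls, followed the same order of controls as S100A12. Its control values ran from 0.32 over a median of 1.21 to 1.70, and the cold replicates gave 2.20, 1.83, 1.41 and 1.65. The groups overlapped, and cold exceeded control by 0.66 (SE 0.25, 1.58-fold, limma unadjusted p = 0.0237, adjusted p = 0.148). The exact permutation p was 0.0524, and the difference was 0.50 without control replicate 4 and -0.26 under median centring.

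MMP9 (gene ID 101677351), gelatinase B, which is stored in the gelatinase granules and cleaves denatured collagen, showed no separation. Control values ran from 0.30 to 2.19, with a median of 1.01. The cold values were 1.65, 1.70, 0.55 and 1.39. The highest value was that of control replicate 4, the animal with the lowest S100A8, S100A9 and S100A12. The difference was 0.19 (SE 0.34, limma adjusted p = 0.774), with a 95% interval from -0.57 to 0.94. With 1 array left out it ran from 0.020 (without control replicate 1) to 0.44 (without cold replicate 3), and it was 0.40 without control replicate 4. Without cold replicate 1 or cold replicate 2 it was 0.079 and 0.061. It was -0.89 under median centring and -0.32 in the deposited value table.

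Of the receptors, CXCR2 (gene ID 101679399), which binds the chemokines that draw neutrophils out of the marrow and into tissue, had control values from 0.42 over a median of 0.85 to 1.63. The cold replicates gave 1.94, 1.04, 2.39 and 1.56, so that 2 of 4 stood above all controls and none below the control median. The difference was 0.82 (SE 0.28, 1.77-fold, limma unadjusted p = 0.0139, adjusted p = 0.126), with an exact permutation p of 0.0429. It stayed positive in all 32 settings tried, with a lowest value of 0.12 under median centring. With 1 array left out it ran from 0.60 (limma unadjusted p = 0.0543, without cold replicate 3), which misses 0.05, to 1.05 (limma unadjusted p = 0.0029, without cold replicate 2), and it also passed 0.01 without control replicate 1. With the processed intensities it was 0.25 (limma unadjusted p = 0.520).

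CSF3R (gene ID 101670977), the receptor of G-CSF that drives neutrophil production and release, had control values between 0.43 and 1.92 with a median of 0.97. Cold values were 1.58, 0.85, 2.20 and 1.499, so that the groups overlapped, with 1 cold value above all controls and 1 below the control median. The difference was 0.40 (SE 0.33, limma adjusted p = 0.480), with a 95% interval from -0.33 to 1.14. With 1 array left out it ran from 0.18 (without cold replicate 3) to 0.63 (without cold replicate 2). It was -0.48 under median centring and -0.06 in the deposited value table.

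The probes of each gene moved together. Of the 36 probes, all 36 had a higher cold than control mean, as probes of 1 gene read the same RNA and are not replicates. The 4 probes of S100A8 ranged from 1.03 to 1.19 and those of S100A9 from 1.02 to 1.27. The 8 probes of CXCR2 were the most spread, from 0.58 to 1.13, while its 2 target sequences averaged 0.81 and 0.83. For CSF3R the target sequences averaged 0.39 and 0.42.

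The ferret's channel alone gave the same direction in 7 of 7 genes, with a median change of 0.73 against -0.04 over all genes, where 42.9% of genes had a higher cold mean. At an unadjusted limma p of 0.01, 3 of 7 genes, the 3 calgranulins, were higher in cold and 0 lower, against 5.48% and 4.36% of all genes. S100A8 also passed an adjusted p of 0.05, against 1.89% of all genes, while no gene did when control replicate 2, control replicate 4 or cold replicate 3 was left out. All 3 calgranulins were without overlap between the groups, against 3.57% of all genes. At the unadjusted threshold of 0.01, S100A9 was lost without cold replicate 3, and S100A12 without control replicate 1 or 3, or cold replicate 1 or 2.

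**Figure D2:**
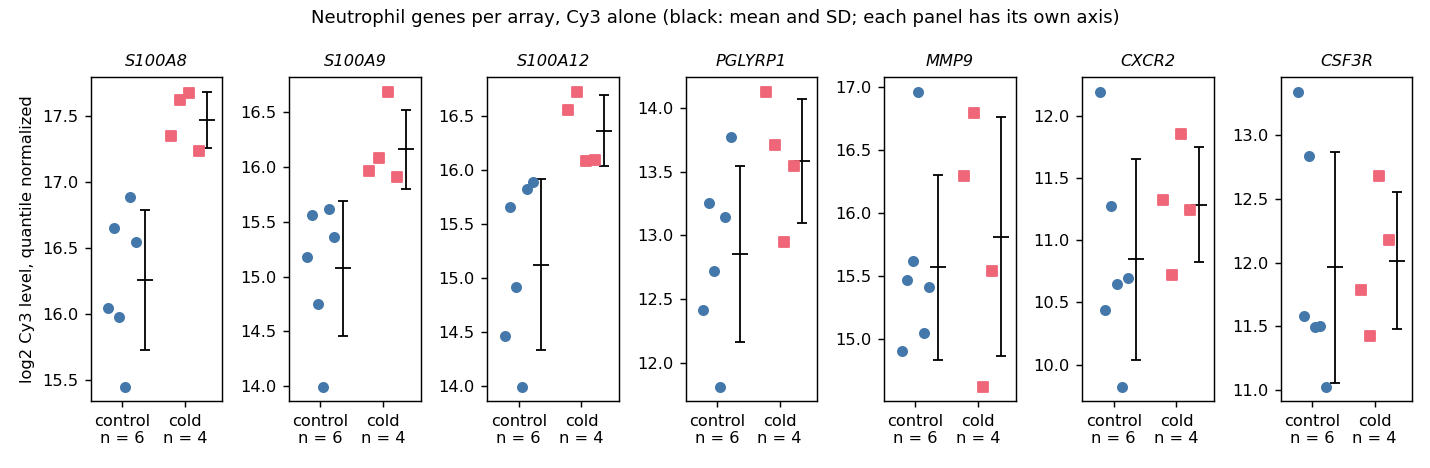
Log2 Cy3 level of each measured gene after quantile normalization, 1 point per animal (blue circles, 6 control, red squares, 4 cold), with the mean and SD in black. The axis differs between panels because levels of different probes are not comparable. S100A8, S100A9 and S100A12 are without overlap between the groups.

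S100A8 in Cy3 alone had control levels of 15.45 at the lowest and 16.88 at the highest, and cold levels of 17.34, 17.62, 17.67 and 17.23. The gap between the groups was wider than on the ratio, with a difference of 1.21 (SE 0.25, 2.31-fold, limma adjusted p = 0.0384). S100A9 differed by 1.08 (SE 0.29, limma adjusted p = 0.0682), with controls from 13.997 to 15.62 and cold at 15.96, 16.08, 16.68 and 15.91. S100A12 differed by 1.24 (SE 0.36, limma adjusted p = 0.0779), with controls from 13.99 to 15.89 and cold at 16.56, 16.72, 16.08 and 16.09.

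The other 4 genes did not separate in Cy3 alone. PGLYRP1 differed by 0.73 (SE 0.34, limma unadjusted p = 0.0556), with a 95% interval from -0.02 to 1.48. CXCR2 differed by 0.44 (SE 0.38, 95% interval -0.40 to 1.28), against 0.82 on the ratio, and control replicate 1 had the highest Cy3 level of all 10 animals, 12.19. MMP9 differed by 0.24 and CSF3R by 0.05, with 95% intervals from -0.74 to 1.22 and from -0.89 to 0.99. Without control replicate 4 the Cy3 difference of MMP9 was 0.52, and with 1 array left out it ran from -0.09 (without cold replicate 2) to 0.64 (without cold replicate 3). That of CSF3R ran from -0.17 (without cold replicate 3) to 0.33 (without control replicate 1), and that of CXCR2 from 0.24 (without control replicate 5) to 0.71 (without control replicate 1).

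The reference pool was the same on every array, so its level should not depend on the group. After quantile normalization of Cy5, S100A12 nevertheless stood 0.38 higher on the cold arrays (SE 0.09, limma unadjusted p = 0.0016, adjusted p = 0.449), with 3 of 4 cold arrays above all controls, and PGLYRP1 stood 0.18 higher (unadjusted p = 0.0127, adjusted p = 0.558). S100A12 thus changed by 0.81 on the ratio and by 1.24 in Cy3 alone, and the part of the reference channel in the ratio was not tested further. For the other 5 genes the Cy5 difference of the group means lay between -0.09 and 0.08. Single arrays could still differ, as the Cy5 level of S100A8 was 11.14 in control replicate 3, against a control median of 11.999. That array had an S100A8 log2 ratio of 1.19 and a Cy3 level of 15.97, against control medians of 0.83 and 16.295. Its effect on the S100A8 ratio was not tested.

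**Figure D3:**
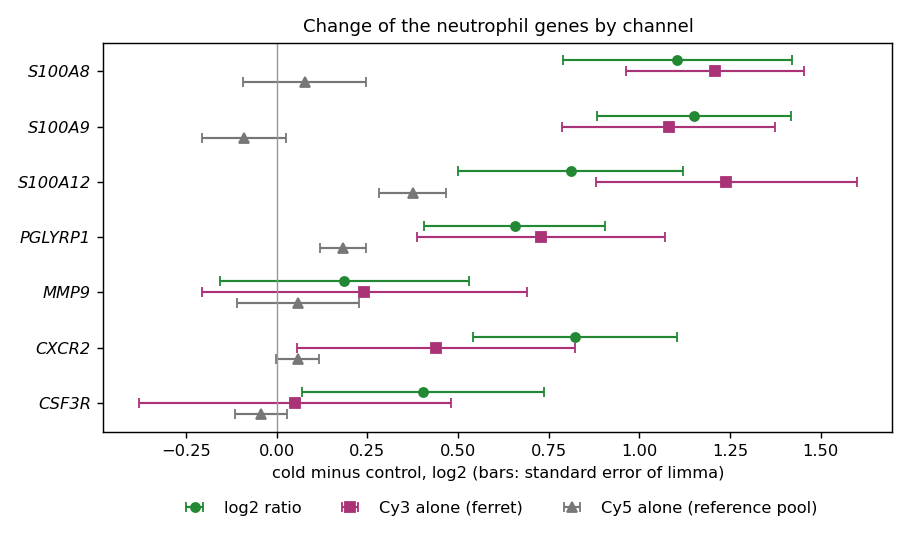
Cold minus control on the log2 scale for each measured gene, from the ratio (green circles), Cy3 alone (purple squares) and the reference channel Cy5 alone (grey triangles), with the standard error of limma as bars. S100A8 and S100A9 changed by 1.08 to 1.21 on the ratio and in Cy3 alone while their reference level changed by 0.08 and -0.09, and S100A12 was higher by 0.38 in the reference channel.

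The slides had 2 array positions, and both groups were present at both. At position 1, with 2 cold and 4 control arrays, 7 of 7 genes were higher in cold, by 0.24 to 1.37. At position 2, with 2 cold and 2 control arrays, 6 of 7 were, and the differences ranged from -0.31 for MMP9 to 1.17 for CXCR2. S100A9 differed by 1.21 and 1.00 at the 2 positions and S100A8 by 1.37 and 0.54.

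Across the 6 control animals, S100A9, S100A12 and PGLYRP1 varied together. The log2 ratios of S100A12 and PGLYRP1 lay close to a line, with Pearson's r = 0.998 and Spearman's rho of 1 (exact permutation p of 0.00139 for r, the smallest that 720 orders can give, adjusted p = 0.00972 over 21 pairs). S100A9 correlated with S100A12 (r = 0.94, rho of 1) and with PGLYRP1 (r = 0.94, rho of 1), both with the same permutation p and adjusted p. These 3 were the pairs that passed the adjustment, and without the 2 animals farthest from the median r was 0.99 for S100A12 with PGLYRP1, 0.93 for S100A9 with S100A12 and 0.91 for S100A9 with PGLYRP1. S100A8 correlated with these 3 genes at r = 0.84 to 0.88, but with S100A9 r became -0.21 without those 2 animals, so that its relation rested on them. In Cy3 alone the r of S100A12 with PGLYRP1 was 0.96, and that of S100A9 was 0.86 with S100A12 and 0.82 with PGLYRP1. There S100A8 did not stand apart, with r = 0.95 with S100A9, 0.94 with S100A12 and 0.86 with PGLYRP1.

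No pair with a receptor passed the adjustment in the controls. CXCR2 and CSF3R correlated with each other at r = 0.80 (rho = 0.60, exact permutation p = 0.0583, adjusted p = 0.175). S100A12 and CXCR2 had r = -0.64 (rho = -0.66, exact permutation p = 0.167, adjusted p = 0.389). MMP9 had a negative r against all 6 other genes, the lowest being -0.71 with S100A9. None of these passed the adjustment, and the arrays at each slide position are too few for values within a position. The sign for MMP9 rested on few animals. Without the 2 farthest from the median of 1 gene of the pair, its r was 0.64 with S100A8, 0.09 with S100A9, 0.89 with CXCR2 and 0.87 with CSF3R. With S100A12 and PGLYRP1 it stayed negative, at -0.53 and -0.40. In the cold group S100A12 was at 1.76 or above in every animal, while CXCR2 ranged from 1.04 to 2.39, as the plot of gene pairs shows.

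**Figure D4:**
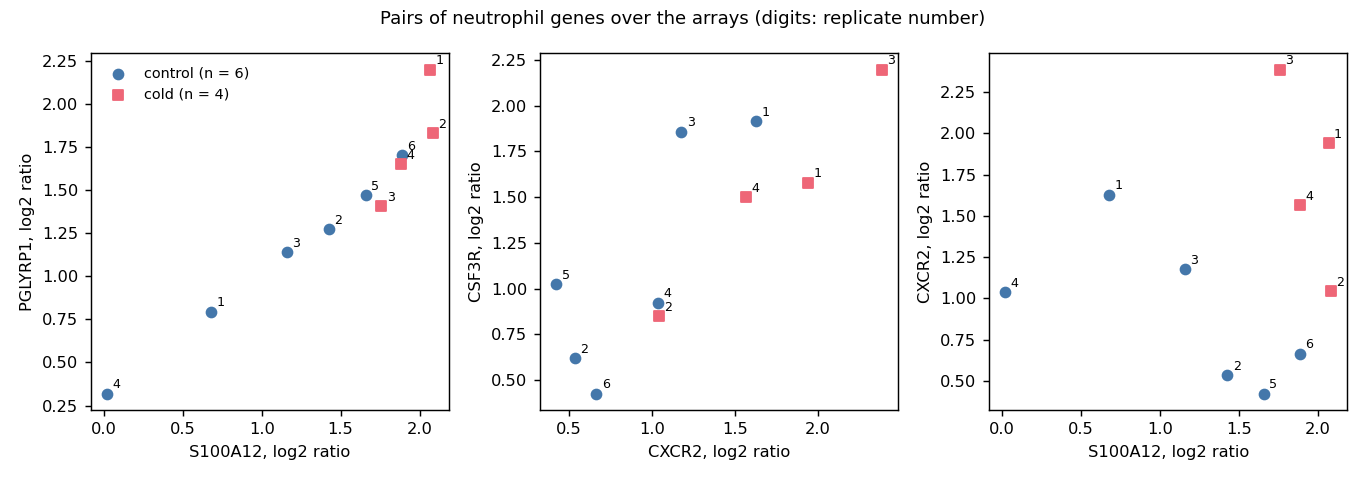
Log2 ratios of 3 pairs of genes, with 1 point per animal labelled by its replicate number (blue circles, 6 control, red squares, 4 cold). S100A12 and PGLYRP1 lie close to a line (r = 0.998 over the 6 controls), while the controls had r = 0.80 for CXCR2 and CSF3R and r = -0.64 for S100A12 and CXCR2, neither past the adjustment.

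To see which other genes varied with the 7 within the groups, each animal's deviation from its group mean was compared over 10 arrays and 8334 other genes with a symbol. The 5 most like the mean of the 7 were RABAC1 (r = 0.94), GIMD1 (r = 0.91), PADI4 (r = 0.90), PPP2R2A (r = 0.90) and PEX14 (r = 0.89). PADI4, the enzyme that citrullinates histones in neutrophils, was higher in cold by 0.70, or -0.07 under median centring, and RABAC1 differed by 0.22. The other 3 had a lower cold mean, GIMD1 by -0.19, PPP2R2A by -0.26 and PEX14 by -0.12, and over the 10 arrays with the group difference left in their r with the mean of the 7 was -0.40, -0.32 and -0.09. The most like S100A8 alone were PEX14 (r = 0.94), CA11 (r = 0.93), ARF4 (r = 0.90), MAPKAPK3 (r = 0.86) and PROSER1 (r = 0.86). These are the highest of many correlations over few arrays of shared origin and are given as a description.

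Other genes of neutrophil biology were taken from 15 lists, of which 100 genes beside the 7 were measured. On the log2 ratio, 72 of the 100 were higher in cold, and at an unadjusted limma p of 0.01, 22 were higher and 2 lower, against 5.21% and 3.43% of all genes. Their median change was 0.23 against -0.01. In Cy3 alone 24 were higher and 2 lower, against 5.48% of all genes higher. Under median centring of the arrays 6 were higher and 3 lower, against 0.817% of all genes higher. In the values that the authors deposited 9 were higher and 2 lower, against 1.92% of all genes higher, and with the processed intensities 14 were higher and 1 lower, against 2.43%. Among the 24 genes past the threshold, 10 turned in sign under median centring, of which CD63 and S100A4 also fell below the median of all genes there.

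Among the specific granule genes, which belong to the same granule as the unmatched LTF and CAMP, 8 of 16 were measured, with a median of 0.63 that was 0.14 under median centring. The cold mean was higher in 8 of 8 on the ratio, PTX3 by less than 0.01, and in 6 of 8 in Cy3 alone. LCN2, the siderophore-binding lipocalin of that granule, was the one past the threshold, with a control mean of 0.23 ± 0.14 (SD, n = 6), a cold mean of 0.90 ± 0.20 (SD, n = 4) and a difference of 0.67 (SE 0.11, limma adjusted p = 0.0576) without overlap. With the processed intensities LCN2 differed by 0.29 (limma unadjusted p = 0.231). STOM and CHI3L1 differed by 0.69 and 0.55 at unadjusted limma p of 0.0178 and 0.0205, and by -0.21 and 0.17 under median centring. Of 4 measured gelatinase and secretory granule genes, 3 were past the threshold, namely ANXA1 (0.97), a phospholipid-binding protein, SLC11A1 (0.91), a divalent metal transporter of phagosomes, and MMP25 (0.82), a membrane-bound metalloproteinase of leukocytes, and ANXA1 turned to -0.01 under median centring. The azurophil granule, filled at the promyelocyte stage, was represented by 3 of 10 genes, of which MPO, myeloperoxidase, was higher by 1.41 (SE 0.26, limma adjusted p = 0.0576) without overlap and CD63, a membrane protein of these granules, by 0.49, with CD63 at -0.52 under median centring.

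**Figure D5:**
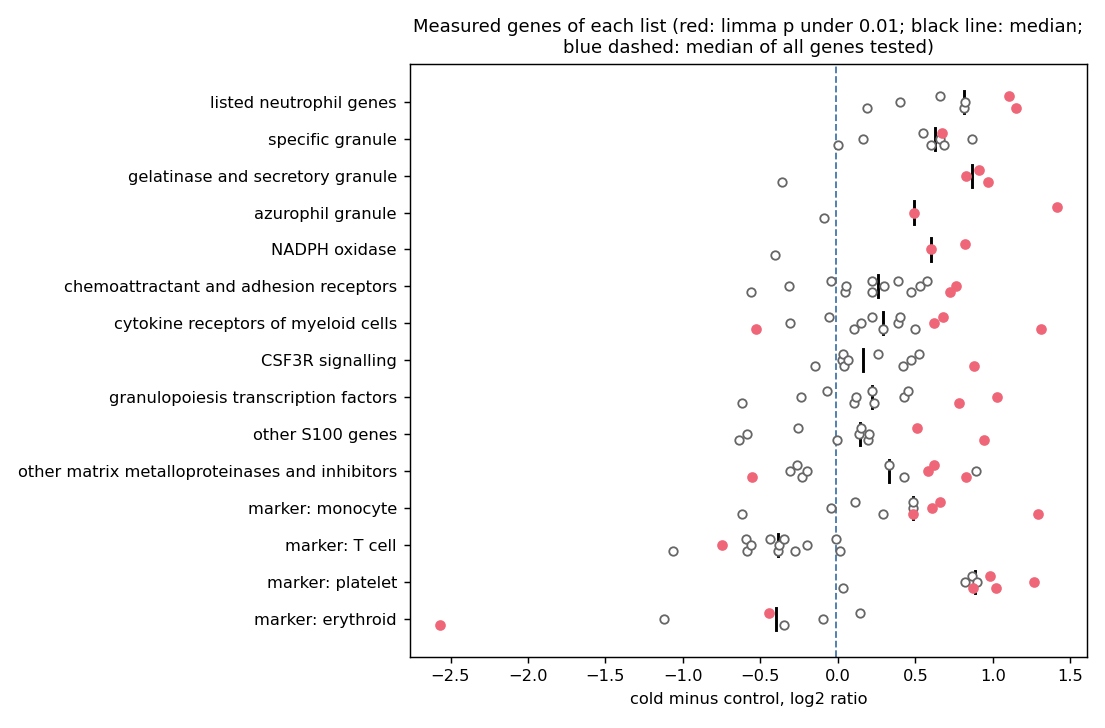
Cold minus control of the log2 ratio for each measured gene of the listed neutrophil genes and of 14 other lists, with genes under an unadjusted limma p of 0.01 in red, the others open, the median of each list as a black line and the median of all genes tested (-0.01) as a blue dashed line. The specific granule list has a median of 0.63, the monocyte markers 0.48, the T cell markers -0.39 and the platelet markers 0.88.

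Beside CXCR2, 14 chemoattractant and adhesion receptors were measured, with a median of 0.26 that was -0.28 under median centring. LTB4R, the receptor of leukotriene B4, was higher by 0.76 and PTAFR, that of platelet-activating factor, by 0.72, and the latter turned to -0.14 under median centring. CXCR1 and FPR1 were not matched to a target sequence, and no CXCR2 ligand was. Beside CSF3R, 13 cytokine receptors of myeloid cells had a median of 0.29, which was -0.62 under median centring and -0.10 in the deposited value table. The GM-CSF receptor chains CSF2RA and CSF2RB were higher by 0.62 and 0.68 and the decoy receptor IL1R2 by 1.31, each at an unadjusted limma p under 0.01, while IL6ST, the shared receptor chain of the interleukin 6 family, differed by -0.53. CSF2RB turned to -0.12 under median centring. The 10 measured genes of CSF3R signalling had a median of 0.16 that was -0.81 under median centring and -0.30 in the deposited value table.

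Of the genes listed as transcription factors of granulopoiesis, not all of them particular to it, 11 were measured with a median of 0.22, or -0.44 under median centring. CEBPE, needed for the late granules, was higher by 1.03 (SE 0.19, limma adjusted p = 0.0576) without overlap, and KLF4 by 0.78. The 3 measured NADPH oxidase genes had a median of 0.60, that of NCF4, a cytosolic subunit, which passed the threshold without overlap and was -0.40 under median centring. RAC2, the GTPase of the complex, differed by -0.41 on the ratio (limma unadjusted p = 0.0767) and by -0.40 in Cy3 alone (limma unadjusted p = 0.0063). Of 2 measured genes of extracellular trap formation, MPO and PADI4, both passed. Of 8 survival genes, 4 were higher and 4 lower, with BAK1, an effector of apoptosis, past the threshold at 0.40, or 0.15 in Cy3 alone and -0.42 under median centring.

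Of 10 other S100 genes, S100A6 and S100A4 were higher by 0.95 and 0.51, both below 0 under median centring, S100B differed by -0.64 on the ratio (limma unadjusted p = 0.0187) and by 0.01 in Cy3 alone (limma unadjusted p = 0.877), and the list median of 0.14 was -0.31 under median centring. Of 11 other matrix metalloproteinases and inhibitors, MMP13 (0.58), MMP27 (0.62) and MMP25 were higher and MMP14, a membrane-type collagenase, differed by -0.55, all with the same sign under median centring. None of 3 calgranulin receptors passed the threshold on the ratio, with ALCAM at -0.42 (limma unadjusted p = 0.0101), TLR4 at 0.47 (limma unadjusted p = 0.0110) and CD36 at 1.325. In Cy3 alone TLR4 passed it at 0.53 (limma unadjusted p = 0.0093), and ALCAM differed by -0.19 (limma unadjusted p = 0.333). On the ratio, none of 4 peptidoglycan recognition and antimicrobial genes passed the threshold, with LYZ at 0.60, or -0.56 under median centring. In Cy3 alone 1 of them passed it, NOD1 at 0.31 (limma unadjusted p = 0.0099), which differed by -0.0079 on the ratio.

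Markers of other blood cells moved between the same groups, and their part in the differences of the neutrophil genes was not tested. Of 12 monocyte markers, 10 were measured, 8 of them higher in cold and 4 past the threshold, among them VCAN (1.29), CD14 (0.66) and CD300E (0.61). Their mean log2 ratio per array ranged from 0.22 to 0.48 for the controls and from 0.28 to 1.14 for the cold animals, and under median centring 2 of the 10 were higher in cold. In Cy3 alone 8 of 10 monocyte markers were higher, 3 of them past the threshold, and CX3CR1, the fractalkine receptor, was past it at -0.58 (limma unadjusted p = 0.0011). CD300E missed the threshold there (limma unadjusted p = 0.0335), while CD163 passed it at 0.49 (limma unadjusted p = 0.0079) but differed by -0.62 on the ratio. In the deposited value table the monocyte median was 0.03 against 0.48 on the ratio, and CD14 differed by 0.17. The 2 measured granulocyte precursor markers were MPO and CEBPE, with ELANE, PRTN3, CTSG and AZU1 not matched, and their mean ranged from -0.22 to 0.36 for the controls and from 0.80 to 1.93 for the cold animals.

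Of 13 measured T cell markers, 12 were lower in cold, with LCK past the threshold at -0.75, and their mean was -0.06 to 0.24 in control and -0.87 to -0.11 in cold. In Cy3 alone 13 of 13 T cell markers were lower, 8 of them past the threshold, with a median of -0.66 against -0.39 on the ratio. The 8 measured platelet markers were all higher, 4 of them past the threshold, with a mean of 0.02 to 1.325 in control and 0.88 to 1.85 in cold, and 7 of 8 were higher under median centring. In Cy3 alone 8 of 8 platelet markers were higher and 0 passed the threshold. Of 6 erythroid markers 5 were lower on the ratio, HBM at -2.56 and EPB41 at -0.44 past the threshold, with a median of -0.40 and a mean per array of 0.03 to 0.82 in control and -0.60 to -0.13 in cold. In Cy3 alone their median was -0.99, with 2 lower past the threshold and SPTB, a spectrin of the red cell membrane, higher at 0.65 (limma unadjusted p = 0.0053). The B cell markers (9 measured, median -0.06), the NK cell markers (8 measured, median 0.09) and the eosinophil and basophil markers (7 measured, median 0.38) had 1, 0 and 1 genes past the threshold, EBF1 at -1.06 and HDC at 1.13. In Cy3 alone the B cell median was -0.56 with 0 of 9 markers higher, the NK cell median -0.10 and the eosinophil and basophil median 0.26, with 0 genes of these 3 lists past the threshold.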

How the data were processed

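Custom Agilent arrays with 416280 spots were scanned by the authors and read with Feature Extraction 10.7.3.1, per the file headers. The deposited files hold spot intensities of both dyes, not normalized, as medians with local background, and a log2 table by target sequence whose scale and centring were not stated (column medians 7.87 to 8.78). No columns were left unmapped. Sign and scale of the ratio follow the dyes in the labels.

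In R 4.3.3 and limma 3.58.1, normexp with an offset of 50 served as background correction, and the ratio was fitted by loess (span 0.3, 4 iterations) in each array. Outlier spots were dropped, and spots were averaged per probe, then probes per gene. Probes entered if Cy3 cleared the background in a share of 0.5 or more of their spots on 4 or more arrays (111051 of 181312). Cy3 alone and Cy5 alone were quantile normalized. Of 45328 target sequences, 21104 were named through the RefSeq table of assembly ASM1176430v1.1. Coordinates are not given, since the probes were not placed on that assembly.

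Cold and control were tested in limma (lmFit, eBayes, two-sided, Benjamini-Hochberg over all genes) and single values with exact permutation tests, and each animal was 1 sample. The 10 arrays limit the precision. Of each list, at most 3 genes by lowest p were named, with any needed to say what the list held (some genes are counted but not reported here), and the 5 genes most like the members. The test was checked on simulated data. The members and all lists were chosen with earlier results of these data known. The alternatives were the processed intensities, no background subtraction, median centring, the deposited table, 2 filters, the median over probes, the methods' t-test, 2 blocks and leaving out each array. Replicate numbers were not taken as pairs in the main fit.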

Additional observations from a re-analysis of the deposited data

Results flagged for a closer look

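The highest or lowest animal was set against the spread of its group in 28 groups of member values and 72 of named companion genes. Cy5 levels were left out of these groups. Chance alone would single out about 1 in 20 such groups. For the members, control replicate 4 was the lowest in the log2 ratio of S100A9, 0.47 against 1.51 for the nearest control (gap over range 0.683), and the highest in the Cy3 level of MMP9, 16.96 against 15.62 (0.652). Without it the change of S100A9 was 0.94.

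Among companion genes, control replicate 5 was the lowest control for ALCAM, -0.51 against -0.20 (gap over range 0.650). Cold replicate 1 was the lowest cold animal for PGLYRP2, -0.06 against 0.18 (0.950).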

How the results depend on the processing

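Of 224 values of single members, 184 kept their direction and side of the unadjusted threshold, 9 lost the threshold, 17 gained it and 14 turned in sign. Under median centring of each array the median of all genes was -0.43, the members' median -0.25, S100A8 -0.012, S100A12 -0.25, MMP9 -0.89, CSF3R -0.48 and PGLYRP1 -0.26, and 0 members, 9 companion genes and 1163 genes in all passed the unadjusted threshold, 18.5% of them higher in cold against 60.3% in the loess fit of 2272. In the deposited table the members' median was 0.31, MMP9 -0.32 and CSF3R -0.062, with 0 members, 11 companions and 1088 genes (46.4% higher). With the processed intensities the members' median was 0.48, with 15 companions and 1505 genes (42.5% higher). The adjusted threshold was passed by 741 genes in Cy3 alone, 115 with a filter on all 10 arrays and 5 with slide position as a block, against 0. The methods' t-test called 1 member. The cause of these differences was not tested.

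The arrays of the same replicate number had correlations of mixed sign (-0.30, 0.54, 0.10 and -0.19), which were not tested, and replicate numbers were not taken as pairs. With the replicate block over replicates 1 to 4, which left out control replicates 5 and 6, 5 members passed the unadjusted threshold, against 2. The share of all genes in that fit is not given here, so the count is no support for the members.

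Leaving out 1 array gave 1275 to 3386 genes at the unadjusted threshold (lowest without cold replicate 3, highest without cold replicate 2), 0 to 1272 at the adjusted threshold, 1 to 4 members, 17 to 29 companions and a members' median of 0.59 (without control replicate 4) to 0.83. In Cy3 alone, chosen after seeing the data, these ranges were 1609 to 3340, 0 to 1684, 2 to 3, 16 to 28 and 0.52 to 0.91. There the adjusted threshold was passed by 11, 0, 452, 0, 722 and 1684 genes without control replicates 1 to 6 and by 951, 54, 0 and 32 without cold replicates 1 to 4, and the members' median was 0.55 without cold replicate 1. CSF3R was -0.024, -0.041, -0.040 and -0.13 without control replicates 2, 4, 5 and 6 and -0.17 and -0.00048 without cold replicates 3 and 4, and MMP9 was -0.085 without cold replicate 2. Cy3 alone from the processed intensities, also added later, gave 3699 genes, 3121 at the adjusted threshold, 5 members, 51 companions, a members' median of 1.41 and a median of all genes of 0.41.

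In signal over background, CXCR2 had the lowest share of reference spots well above it among the members, 18.75% at the lowest.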
